A study of Mus musculus with 5 samples.

Results

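The 10 heat shock chaperone genes described here, Hspa1a, Hspa1b, Hsph1, Dnajb1, Hspb1, Hsp90aa1, Hspa8, Bag3, Hspd1 and Hspe1, are 10 of the 32285 gene rows of the count tables. They were matched by symbol, and all 10 were found once. The set was chosen by its high levels in 1 library of the study, the third knockout-labelled library (KO3), so the contrast of that library with the others, and the contrast of genotypes that it enters, are given as a description, and their calls support nothing. What the choice did not use is the cell class, and the classes were compared with a test.

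Cells of whole mammary gland from 5 mice were profiled by single-cell RNA sequencing, 1 library per mouse, with a 10x Genomics chemistry that captures transcripts at their 3′ end and counts them by unique molecular identifiers (UMIs). Libraries KO1, KO2 and KO3 carry the label Frmd3 knockout (3 mice) and WT1 and WT2 the label wild type (2 mice). Frmd3 encodes a FERM domain protein, and the study concerns the fate of mammary epithelial cells and Notch signalling. The sources used here give neither strain and age nor the design of the knockout allele. Lists of 5 values run from KO1 to KO3 and then from WT1 to WT2.

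Chaperones bind proteins that are unfolded or not yet folded. In the cytosol Hsp70 proteins do so in cycles driven by ATP: J-domain partners such as Dnajb1 deliver the client, and exchange factors such as Hsph1 and Bag3 release it. Hspa8 is the Hsp70 made at all times, while Hspa1a and Hspa1b are the inducible copies. Under heat and other stress that unfolds proteins, heat shock factor 1 (HSF1) binds heat shock elements in the promoters of such genes and raises their transcription within minutes. In mammary tissue Hspb1, a small heat shock protein, is known as an epithelial and estrogen-responsive gene.

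The libraries held between 3359 and 11040 barcodes, and 26834 cells were used after filters on gene number, mitochondrial share and doublets. The fewest cells came from KO3, 2218, and the most from KO1, 9450. Median depth ran from 4163 UMIs per cell in KO1 to 12772 in KO2. In KO1, 40.3% of the cells used lay in clusters where Krt8 (epithelium), Dcn (fibroblasts) and Cd74 (immune cells) were each detected in most cells; they stayed unnamed and enter the values over all cells only. In KO3, 18.5% of barcodes exceeded 15% mitochondrial UMIs, against 3.80% to 13.2% in the others. Between libraries, 77 cell barcodes were shared. Frmd3 itself had 2.12, 3.06, 1.82, 1.42 and 2.40 CPM (UMIs of a gene per 1000000 UMIs) over all barcodes, so its 3′ counts did not separate the labels; where the deletion lies is not given, and a count outside it checks nothing.

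The inducible Hsp70 pair was highest in KO3 by a wide margin. Over all cells used, Hspa1a (17:34969190-34972156, minus strand, mm10) stood at 139, 179, 1878, 151 and 103 CPM. Its neighbour Hspa1b (17:34956436-34959238, minus strand) stood at 135, 127, 2476, 129 and 74.4 CPM. KO3 was 13.1-fold above the mean of the other 4 libraries for Hspa1a and 21.3-fold for Hspa1b. The exact Poisson 95% interval of the KO3 value, which covers counting error only, was 1859 to 1896 CPM for Hspa1a, so depth does not limit this comparison. For Hspa1a the other 4 libraries lay within 103 to 179 CPM, and KO1 and KO2 overlapped with the wild type. The annotated transcripts of the 2 copies are identical at 2495 of 2729 aligned bases (91.4%), but at 167 of 312 aligned bases within the last 500 bases of the Hspa1a transcript, the end that the kit reads; how far reads were still shared was not tested. The ratio of Hspa1b to Hspa1a UMIs was 0.968, 0.710, 1.32, 0.854 and 0.722, above 1 in KO3 alone.

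**Figure D1:**
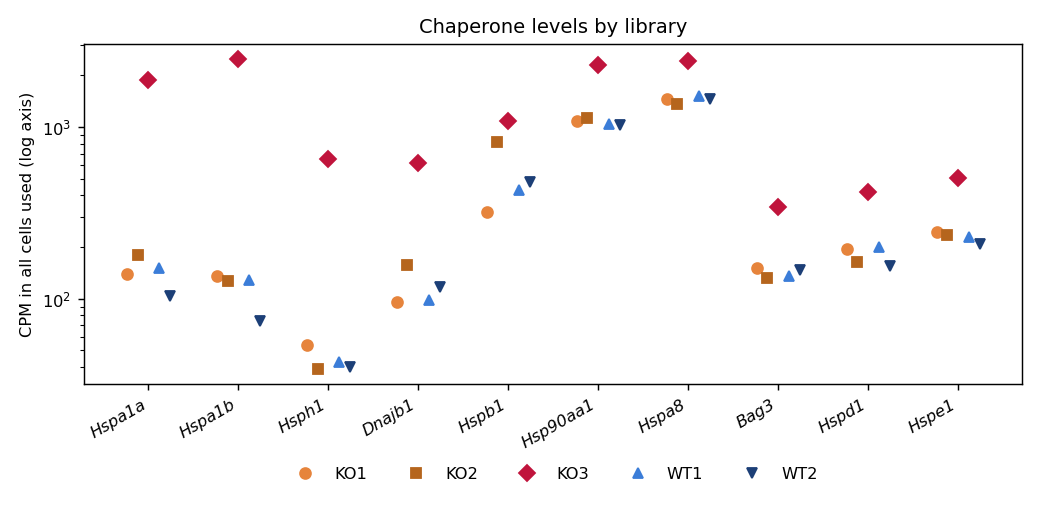
Level of each of the 10 chaperones over all cells used, in CPM on a log axis, with 1 point per library (KO1, KO2 and KO3 labelled Frmd3 knockout, WT1 and WT2 wild type). The KO3 diamond is the highest point for all 10 genes, from 2426 against at most 1506 CPM for Hspa8 to 2476 against at most 135 CPM for Hspa1b.

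The partners of Hsp70 followed with different sizes. Hsph1, the Hsp110 exchange factor (5:149614287-149636376), stood at 54.0, 39.0, 647, 42.8 and 40.1 CPM, 14.7-fold higher in KO3 than the mean of the others. Dnajb1, a J-domain protein (8:83608193-83612653), stood at 95.2, 156, 616, 98.9 and 117 CPM, a ratio of 5.27. Bag3, an exchange factor that also links Hsp70 to autophagy (7:128523616-128546981), stood at 151, 131, 340, 135 and 146 CPM, a ratio of 2.42. For these 3 genes the 4 other libraries lay below KO3 without exception.

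The chaperones that cells make at rest had smaller ratios. Hspa8 (9:40800984-40810087) stood at 1458, 1365, 2426, 1506 and 1455 CPM, 1.68-fold higher in KO3. Hsp90aa1, the inducible cytosolic Hsp90 that is also well expressed at rest (12:110690605-110702728), stood at 1078, 1136, 2311, 1038 and 1024 CPM, a ratio of 2.16. The mitochondrial chaperonin pair, Hspd1 (Hsp60, 1:55077835-55088243) and its lid Hspe1 (Hsp10, 1:55088132-55091307), lie head to head on the genome. Hspd1 stood at 194, 164, 418, 200 and 155 CPM and Hspe1 at 244, 234, 506, 229 and 209 CPM, ratios of 2.35 and 2.21. Hspb1 (5:135887919-135889563) stood at 318, 819, 1087, 431 and 476 CPM, a ratio of 2.13. Over all cells it differed from the rest in that KO2 came near KO3, which was 1.33-fold above it. Within the cell classes described below the 2 libraries lay farther apart in some. Hspb1 stood at 77.5 CPM in KO2 and 336 CPM in KO3 in fibroblasts, and at 1115 and 2279 CPM in hormone-sensing luminal cells. In luminal progenitors the values were 2811 and 4098 CPM. In monocytes KO2 was above KO3, at 28.8 and 8.83 CPM, as it was in T cells, at 36.6 and 23.0 CPM.

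Summed, the 10 genes took 0.387%, 0.435%, 1.27%, 0.396% and 0.380% of all UMIs. KO3 was above each of the other 4 libraries for 10 of 10 members, where 28.9% of the 8445 genes with a mean of at least 10 CPM had KO3 highest. It was at least 2-fold above their mean for 9 of 10 members, Hspa8 being the exception, where 2.33% of those genes were. The members were selected on this contrast, so nothing is read from either count. Over the named cell classes alone, which drops the unnamed clusters of KO1, the sum stood at 0.378%, 0.435%, 1.26%, 0.396% and 0.380%.

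The promoter sequences of the members are shown because these genes moved together in KO3 and because a heat shock element is made of short units that can be read directly. The unit is GAA or its inverse TTC, and units alternate with 2 bases between them; GAANNTTC and TTCNNGAA are the 2-unit forms, searched on both strands with overlaps counted. RefSeq promoter windows on GRCm38.p6, from 250 bases before to 50 after a transcript start, were matched for 8 of the 10 members, all but Hsp90aa1 and Hspa8, with 11 windows in all. In each line below, bases run 5′ to 3′ along the gene's strand and capitals mark the units of every match. Hspa1a is at chr17:34972107-34972406 and Hspa1b at chr17:34959189-34959488, both on the minus strand; Hspe1 is at chr1:55087898-55088197, plus strand; Hsph1, the second of 2 windows, at chr5:149636266-149636565, minus strand; Hspb1 at chr5:135887669-135887968, plus strand.
Hspa1a: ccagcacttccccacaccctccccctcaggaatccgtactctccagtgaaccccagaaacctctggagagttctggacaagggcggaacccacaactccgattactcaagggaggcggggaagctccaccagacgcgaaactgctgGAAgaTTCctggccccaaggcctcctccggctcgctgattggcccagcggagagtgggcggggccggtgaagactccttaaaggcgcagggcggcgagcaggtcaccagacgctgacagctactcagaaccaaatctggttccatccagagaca
Hspa1b: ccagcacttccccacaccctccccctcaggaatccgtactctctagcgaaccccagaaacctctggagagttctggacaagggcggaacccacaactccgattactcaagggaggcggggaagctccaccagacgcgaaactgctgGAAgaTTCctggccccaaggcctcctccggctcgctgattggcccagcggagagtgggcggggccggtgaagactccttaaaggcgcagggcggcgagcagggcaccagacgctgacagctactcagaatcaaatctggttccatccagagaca
Hspe1: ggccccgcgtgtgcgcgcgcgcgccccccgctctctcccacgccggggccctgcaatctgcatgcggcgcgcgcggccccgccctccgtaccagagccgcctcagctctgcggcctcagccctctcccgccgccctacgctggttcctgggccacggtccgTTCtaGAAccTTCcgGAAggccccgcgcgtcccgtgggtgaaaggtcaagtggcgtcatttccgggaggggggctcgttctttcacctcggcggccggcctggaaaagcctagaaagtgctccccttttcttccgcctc
Hsph1: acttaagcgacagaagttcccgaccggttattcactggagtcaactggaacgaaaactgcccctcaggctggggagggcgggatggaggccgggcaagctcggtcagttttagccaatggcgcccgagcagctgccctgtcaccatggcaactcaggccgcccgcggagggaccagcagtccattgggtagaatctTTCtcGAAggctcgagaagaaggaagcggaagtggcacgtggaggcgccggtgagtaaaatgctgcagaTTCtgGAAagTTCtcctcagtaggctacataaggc
Hspb1: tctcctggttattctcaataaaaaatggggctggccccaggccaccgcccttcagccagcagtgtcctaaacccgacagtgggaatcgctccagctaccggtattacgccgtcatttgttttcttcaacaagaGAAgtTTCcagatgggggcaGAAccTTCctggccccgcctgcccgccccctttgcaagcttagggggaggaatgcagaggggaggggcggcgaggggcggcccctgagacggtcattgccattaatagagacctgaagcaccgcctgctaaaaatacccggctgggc

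The 2 Hsp70 windows were identical at 296 of 300 bases, and each held 1 match of the 2-unit form, starting 104 bases before the transcript start. The window of Hspe1 held a run of 4 units from 89 bases before the start, and the second Hspd1 window, which covers the same stretch from the other strand, held the same 4 units. Hsph1 held a run of 3 units from base 16 of the transcript and a separate 2-unit match upstream of the start. In Hspb1 there were 2 separate 2-unit matches. Bag3 held 1 match, in the last 8 bases of its window, and Dnajb1 none in either of its windows. A match of 3 units was found for 3 of the 8 members (Hspd1, Hspe1 and Hsph1) and for 0.662% of all 27025 genes with a window; a match of 2 units was found for 7 of the 8 members and 17.0% of all genes. These are matches of letters, not measured binding.

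Within cell classes KO3 was again the highest library. A class was named from marker genes, after clustering without any of the chaperones, and is written with "-like". KO3 had at least 20 cells of 10 classes that another library also held, which makes 100 pairs of member and class, and KO3 was above every other library in 97 of them, against 28.5% of 72280 pairs of gene and class. The classes are parts of the cells in which the members were chosen as high in KO3, so nothing is read from this count. The 3 exceptions were all Hspb1, in monocyte-like, natural killer (NK)/innate lymphoid-like and T cell-like cells, where it was at most 81.2 CPM in any library. The median log2 ratio over the members was lowest in basal/myoepithelial-like cells, 0.84, and highest in macrophage-like cells, 2.11.

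**Figure D2:**
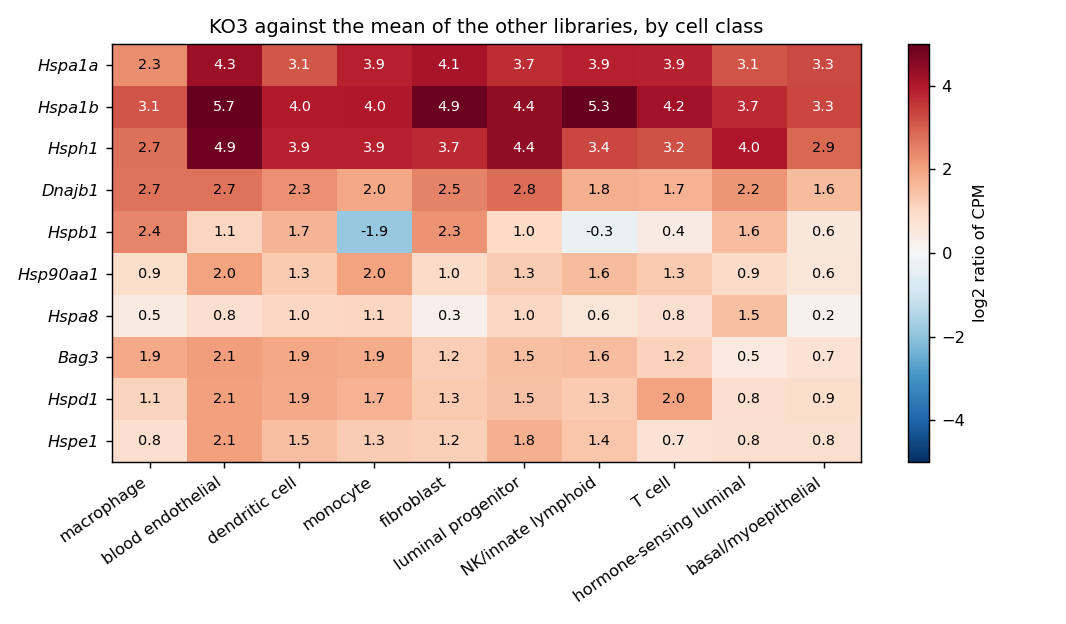
Heat map of the log2 ratio of CPM in KO3 to the mean CPM of the other libraries, with chaperones as rows and cell classes as columns (blood endothelial-like cells have 2 other libraries, the other classes 4). Hspa1a, Hspa1b and Hsph1 have the highest 3 ratios in every column but macrophage-like cells, up to 5.67 for Hspa1b in blood endothelial-like cells, and Hspb1 is below 0 in monocyte-like (-1.88) and NK/innate lymphoid-like (-0.32) cells.

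In the 3 classes of mammary epithelium all 10 members were highest in KO3. In luminal progenitor-like cells, the Kit-positive precursors of milk-secreting cells, the members summed to 5026, 7232, 20054, 5066 and 6248 CPM; KO3 had 49 such cells. Hspa1b there stood at 148, 226, 3816, 160 and 167 CPM and Hsph1 at 33.5, 54.0, 796, 28.6 and 30.5 CPM. In hormone-sensing luminal-like cells, which carry the estrogen and prolactin receptors, the sum was 3205, 4256, 11524, 2956 and 3899 CPM. Of the 175 such cells of KO3, 47 lay in a cluster of very deep cells, with a median of 43664 UMIs, whose leading genes include Hspa1a, Hspa1b and Hspb1. The luminal progenitor markers Kit and Elf5 stood in that cluster at 170 and 82.7 CPM in KO3. In the other 128 KO3 cells of the class they stood at 11.3 and 6.72 CPM. Prlr, a hormone-sensing marker, stood at 2679 and 3016 CPM. Whether the deep cells are mixtures of cell classes was not tested. Without that cluster the KO3 sum was 9551 CPM, against at most 4195 CPM in the others, and the log2 ratio of the sum went from 1.69 to 1.43. In basal/myoepithelial-like cells, the contractile outer layer, the sum was 5596, 5874, 10717, 5614 and 5217 CPM, from 33 cells each in KO2 and KO3; Hspa8 there was close between libraries, at 1727, 1865, 2104, 2002 and 1757 CPM.

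Stromal and endothelial cells separated KO3 widely. Fibroblast-like cells, the largest class, held 2805, 1337, 908, 1583 and 2376 cells. Hspa1a in them stood at 85.4, 55.2, 1305, 99.3 and 57.1 CPM and Hspb1 at 79.5, 77.5, 336, 68.6 and 54.8 CPM, while Hspa8 ran from 1521 to 1896 CPM in the other 4 libraries and stood at 2083 CPM in KO3. Different clusters held the largest share of this class: 1 in KO2 and WT2 (685 and 1205 cells), another in KO1 and WT1 (971 and 426) and another still in KO3 (284). Pi16 was among the leading genes of both the first and the second. The part of these clusters in the levels was not tested. The 4 other libraries lay within 1.22-fold of each other for Hsph1, at 47.5 to 57.9 CPM, and KO3 stood at 695 CPM. In blood endothelial-like cells, of which KO1 and WT2 held too few, the members summed to 3828 CPM in KO2, 22013 CPM in KO3 and 5782 CPM in WT1. Mast/basophil-like cells reached 20 cells in KO3 alone, 25 of them, and the sum there was 28390 CPM with no library to compare.

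Immune classes differed from each other in size. In macrophage-like cells Hspa1a stood at 629, 1627, 4676, 483 and 1020 CPM. KO3 was highest, but its ratio to the mean of the other 4, 2.32 on the log2 scale, was the lowest over the 10 classes. Each of the other 4 libraries was also higher there than in any other class it held. In NK/innate lymphoid-like cells Hspa1a stood at 62.1, 6.45, 307, 8.65 and 6.21 CPM, in T cell-like cells at 86.2, 22.9, 604, 32.6 and 25.4 CPM. B cell-like cells could not be compared, since KO3 held none; in the other 4 libraries Hspa1a stood at 14.6, 11.6, 14.3 and 16.8 CPM.

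High counts of chaperone UMIs were found in most cells of KO3. To set cells of unequal depth side by side, 2000 UMIs were drawn from each cell, which left out 251 shallower cells of KO3 and 220 to 890 in the others. The median cell then had 7, 7, 20, 7 and 6 UMIs of the 10 chaperones. The 10th percentile of KO3, 7 UMIs, equalled the median of KO1, KO2 and WT1, and its 90th percentile was 59, against 13 to 15 in the other libraries. Above 15 UMIs, the highest 90th percentile among the others, lay 62.0% of the KO3 cells and 5.48% to 9.01% of the cells elsewhere. At least 1 UMI of Hspa1a or Hspa1b was found in 34.6%, 21.4%, 84.3%, 22.3% and 13.3% of cells at this depth, and in 52.8%, 52.7%, 91.0%, 48.6% and 39.0% before drawing. Not every class had such shares outside KO3: at this depth they were 2.26% to 3.39% in NK/innate lymphoid-like cells and 1.88% to 9.43% in B cell-like cells, with median depths of 4353 to 5408 and 3967.5 to 4331.5 UMIs. How much of these low shares, or of the shares and counts in KO3, is free RNA was not tested. Genes of other classes were detected too. In the largest NK/innate lymphoid-like cluster, 1329 cells over all libraries, 47.3% of cells had Krt8 and 31.5% had Dcn. The median depth of KO3, 6705.5 UMIs, was below that of KO2, WT1 and WT2.

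**Figure D3:**
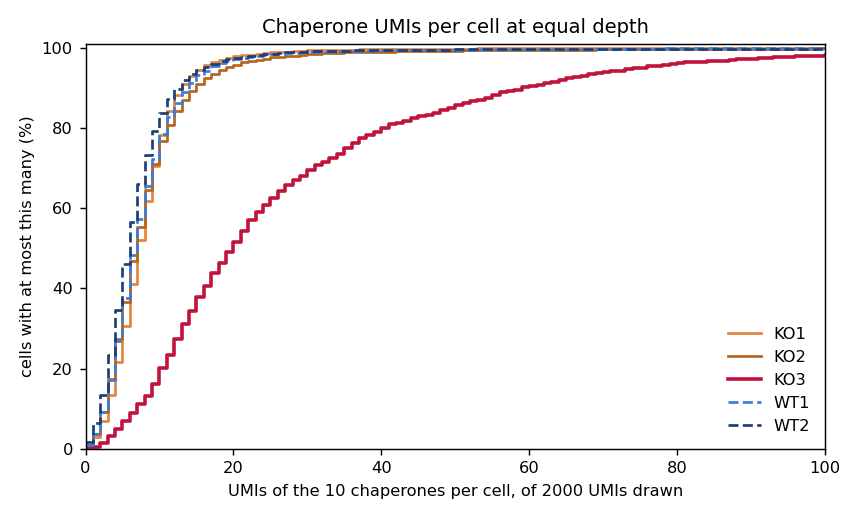
Cumulative share of cells (vertical axis, %) with at most the given number of chaperone UMIs among 2000 UMIs drawn per cell (horizontal axis), 1 line per library, solid for knockout-labelled and dashed for wild type. The KO3 line lies to the right of the others along its whole length, with its median at 20 UMIs against 6 or 7.

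Per cell, the classes of KO3 differed too. Blood endothelial-like cells of KO3 had a median of 43 UMIs of the 10 chaperones, against 6 in KO2 and 10 in WT1. For macrophage-like cells the medians were 10, 9, 35, 7 and 7.5 UMIs, and in KO2 the 90th percentile reached 48.3 against 19.3 to 25.8 in KO1, WT1 and WT2, above the median of KO3. In NK/innate lymphoid-like cells the medians were 5, 6, 12, 5 and 5 UMIs, and 25.4% of the KO3 cells had Hspa1a or Hspa1b against 2.26% to 3.39% in the others.

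Other measures moved with KO3 as well, and their part in the chaperone levels was not tested. The cells that make up the library differed: all 10 blood endothelial markers were highest in KO3, with a summed level of 1951 CPM against 59.7 to 313 CPM in the others. So were 6 of 7 adipocyte markers (1457 CPM against 38.8 to 238). Fabp4, on both of these lists, stood at 173, 146, 1422, 213 and 20.9 CPM and made up most of both KO3 sums. KO3 was also highest for 7 of 9 mast/basophil markers (370 CPM against 29.9 to 164) and 7 of 9 pericyte markers (281 CPM against 88.8 to 152). Beside these counts, KO3 was highest for 28.9% of the 8445 genes with a mean of at least 10 CPM. Within classes the log2 ratio of Hspa1a ran from 2.32 (macrophage-like) to 4.26 (blood endothelial-like), against 3.72 over all cells. That of Hspa1b ran from 3.13 to 5.67 in the same classes, against 4.41 over all cells. In fibroblast-like cells the ratios were 4.14 and 4.92. KO3 was made with Cell Ranger 6.1.2 and the other libraries with 6.0.2, so version and library cannot be told apart. Immediate-early genes, which answer to growth factors and also to tissue dissociation, were highest in KO3 for 9 of 18, beside 28.9% of the 8445 genes. Their summed level was 12035, 11457, 15502, 13681 and 8999 CPM. Egr1, an early transcription factor, stood at 710, 445, 2007, 598 and 371 CPM, and Ier3 at 148, 238, 681, 201 and 133 CPM, while Klf2, also on that list, was lowest in KO3 at 212 against 320 to 383 CPM.

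Among other genes of protein quality control, the Hsp90 partners were the list with the highest median. Values here are log2 ratios of KO3 to the mean of the other 4 libraries over all cells, where the median of the 8445 genes was -0.01. Among 13 other Hsp90 partners the median was 0.56, and 9 were highest in KO3, beside 28.9% of the 8445 genes. Chordc1, a co-chaperone with a zinc-binding domain, was at 1.61, Ahsa2 at 1.08, and Stip1, which hands clients from Hsp70 to Hsp90, at 1.07. The constant Hsp90, Hsp90ab1, stood at 1787, 2362, 3211, 2039 and 1876 CPM, above all others in KO3 and 1.59-fold above their mean. Among 13 other J-domain proteins the median was 0.19; Dnaja4 was at 1.93, with 11.6, 14.8, 50.1, 13.2 and 13.2 CPM, and Dnaja1 at 0.92. Of 12 other genes of the Hsp70 system, 0 were at least 2-fold higher (2.33% of the 8445 genes) and 4 were highest in KO3 (28.9% of the 8445 genes). Hspa4l, an Hsp110 relative of Hsph1, was at 0.89 and Bag2 at -1.06. As medians of the ratios within classes, with 1 CPM added, Hspa4l was at 1.28 and Bag2 at -0.75. The median of the 12 genes was then 0.15, against -0.06 over all cells. The transcription factors stood at -0.06 for Hsf1 and 0.49 for Hsf2.

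Lists from other compartments and other stress responses had medians between -0.58 and 0.06, apart from the immediate-early list at 0.43. Of 14 chaperones and response genes of the endoplasmic reticulum, none was highest in KO3, beside 28.9% of the 8445 genes, and their median was -0.39. Hspa5 (BiP), the Hsp70 of that compartment, stood at 1147, 868, 938, 965 and 787 CPM, with KO3 within the range of the others. None of 10 other mitochondrial chaperones and proteases was highest in KO3 either, with a median of -0.14. Hspd1 (1.23) and Hspe1 (1.14) were chosen for their level in KO3, so nothing is read from their distance to this median. The cytosolic chaperonin and prefoldin subunits had a median of -0.17 over 14 genes, the proteasome subunits -0.45 over 25, the oxidative stress genes -0.58 over 9, and the 2 metallothioneins measured -0.45 (Mt1) and -0.59 (Mt2). Genes of the p53 pathway had a median of -0.05 over 9, and polyubiquitin and autophagy receptor genes 0.06 over 8, Ubb being at -0.41.

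**Figure D4:**
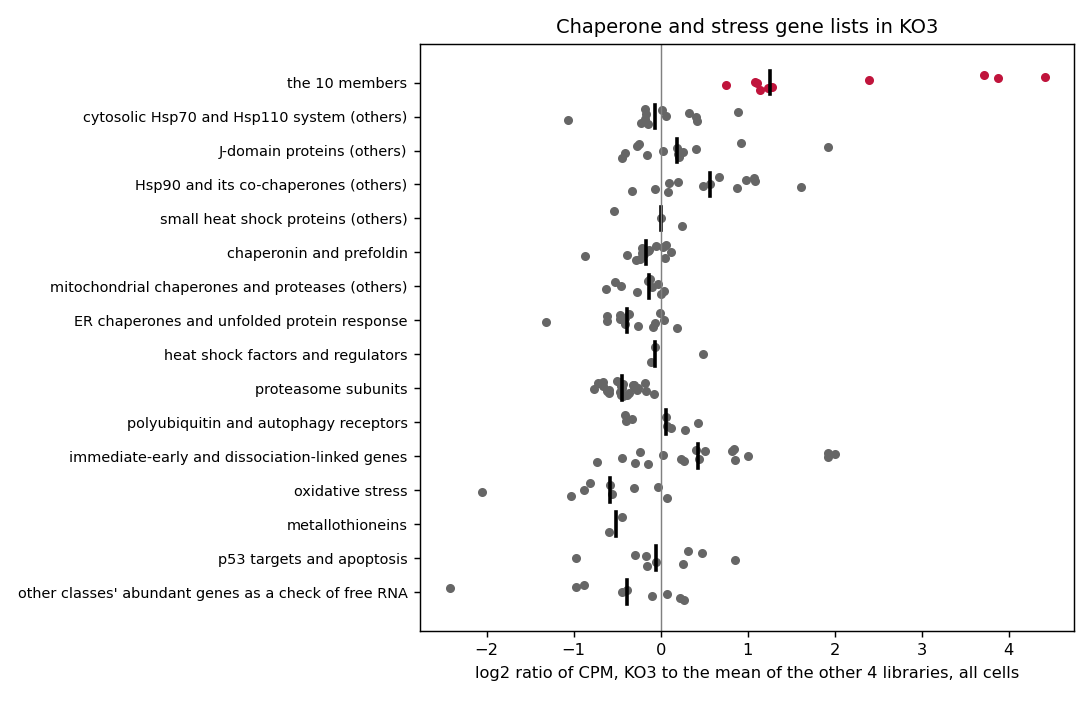
Log2 ratio of CPM in KO3 to the mean of the other 4 libraries over all cells (horizontal axis), with 1 point per gene, gene lists as rows and a bar at each list's median; the 10 chaperones, chosen for this contrast, are in red. The medians run from -0.58 (oxidative stress) to 0.56 (other Hsp90 partners), against 1.25 for the 10 chaperones.

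The genes most like the 10 chaperones were sought over 57 sums of class and library, after each class mean was removed, among 6160 genes; sums of a library share its cells' handling and depth. By Pearson's r to the members' mean log2(CPM + 1), the 10 closest were Ahsa1 (0.88), Dnaja1 (0.87), Hsp90ab1 (0.85), Chordc1 (0.81), Rpl37a (0.81), Rpl41 (0.81), Ahsa2 (0.80), Rplp2 (0.77), Cacybp (0.77) and Csnk2a1 (0.76). Of the members themselves, Dnajb1 (0.96) lay closest to that mean and Hspb1 (0.52) farthest. Over the 46 sums without KO3 the r of Ahsa1 was 0.53, of Dnaja1 0.41, of Hsp90ab1 0.28 and of Rplp2 0.27. Csnk2a1 was at 0.17, Rpl41 at 0.08, Chordc1 at 0.05, Rpl37a at 0.02 and Cacybp at -0.03, and Ahsa2 had no value. The closest gene without KO3 was Jun (0.68), an immediate-early transcription factor. Hspd1 and Bag3 were then at 0.23 and 0.13 to the mean that includes them.

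Which cells carry each chaperone was compared between classes with edgeR's quasi-likelihood test on UMIs summed per library and class, the library as a block, each of 10 classes against the mean of the others. Of the 100 pairs of member and class, 63 passed at an adjusted p of 0.05. Macrophage-like cells had 7 members higher and 1 lower, beside 30.8% and 24.7% of the 12146 genes tested. Luminal progenitor-like cells had 7 higher and 0 lower (all genes 33.8% and 25.7%), basal/myoepithelial-like cells 6 and 0 (33.3% and 24.1%), and hormone-sensing luminal-like cells 5 and 2 (39% and 28.1%). In fibroblast-like cells 4 were higher and 0 lower (38.4% and 30.9%), a share near that of all genes. Dendritic cell-like cells had 2 higher and 3 lower (25.8% and 18.1%), monocyte-like cells 2 and 5 (21.5% and 19.1%) and T cell-like cells 2 and 4 (26.7% and 24.4%). NK/innate lymphoid-like cells had 0 higher and 5 lower (26.5% and 26.4%), and B cell-like cells 0 and 8 (23.3% and 25.9%).

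Inducible Hsp70 was highest in macrophage-like cells among the classes tested. Hspa1a was higher in macrophage-like cells by 3.57 on the log2 scale (SE 0.27, edgeR adjusted p = 1.84e-14) and Hspa1b by 3.38 (SE 0.23, edgeR adjusted p = 5.975e-16). Outside KO3, Hspa1a averaged 939 ± 511 CPM in macrophage-like cells (SD, n = 4), followed by Schwann/glial-like cells with 297 ± 248 and blood endothelial-like cells with 234 ± 112 CPM (SD, n = 2 each). Then came luminal progenitor-like cells with 224 ± 60.5, hormone-sensing luminal-like with 163 ± 48.1, dendritic cell-like with 153 ± 114, monocyte-like with 138 ± 70.1, basal/myoepithelial-like with 107 ± 69.1, fibroblast-like with 74.3 ± 21.7, T cell-like with 41.8 ± 29.9, NK/innate lymphoid-like with 20.8 ± 27.5 and B cell-like with 14.3 ± 2.09 CPM (SD, n = 4 each). Neutrophil-like cells had 21.1 ± 9.24 CPM (SD, n = 2). The lowest macrophage-like value among these libraries, 483 CPM, was above the highest of every other class; below that, neighbours in the order overlapped. Hsph1 (1.70) and Hsp90aa1 (1.21) were also highest against the other classes in macrophage-like cells, with edgeR adjusted p of 1.41e-11 and 4.86e-14. Of 18 immediate-early genes, 14 were higher in macrophage-like cells and 2 lower, beside 30.8% and 24.7% of all genes, and the part of such a response in the Hsp70 level of these cells was not tested.

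Hspb1 was high in epithelial and endothelial cells. It was higher in luminal progenitor-like cells by 5.26 (SE 0.20, edgeR adjusted p = 5.61e-24), with 1460, 2811, 4098, 1555 and 2455 CPM. In hormone-sensing luminal-like cells it was higher by 3.78 and in basal/myoepithelial-like cells by 3.59 (edgeR adjusted p = 7.39e-19 and 3.37e-17). It was lower in all 6 immune classes tested, though the call in macrophage-like cells was lost with doublets kept (-0.94, edgeR adjusted p = 0.075) and that in monocyte-like cells without KO2 (-1.04, edgeR adjusted p = 0.072). Values were 0 to 81.2 CPM outside macrophage-like cells in libraries other than KO3. In KO2 and WT2 the luminal values were higher than in KO1 and WT1: 1115 and 1003 against 549 and 433 CPM in hormone-sensing luminal-like cells, whose largest cluster also differed (1178 and 729 cells of 1 cluster in KO2 and WT2, 224 and 509 of another in KO1 and WT1), and 2811 and 2455 against 1460 and 1555 CPM in luminal progenitor-like cells. Blood endothelial-like cells, not in the fit, held 899 CPM in KO2, 2178 CPM in KO3 and 1145 CPM in WT1. Outside KO3 their mean, 1022 CPM, was above those of hormone-sensing luminal-like (775 CPM) and basal/myoepithelial-like cells (761 CPM).

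**Figure D5:**
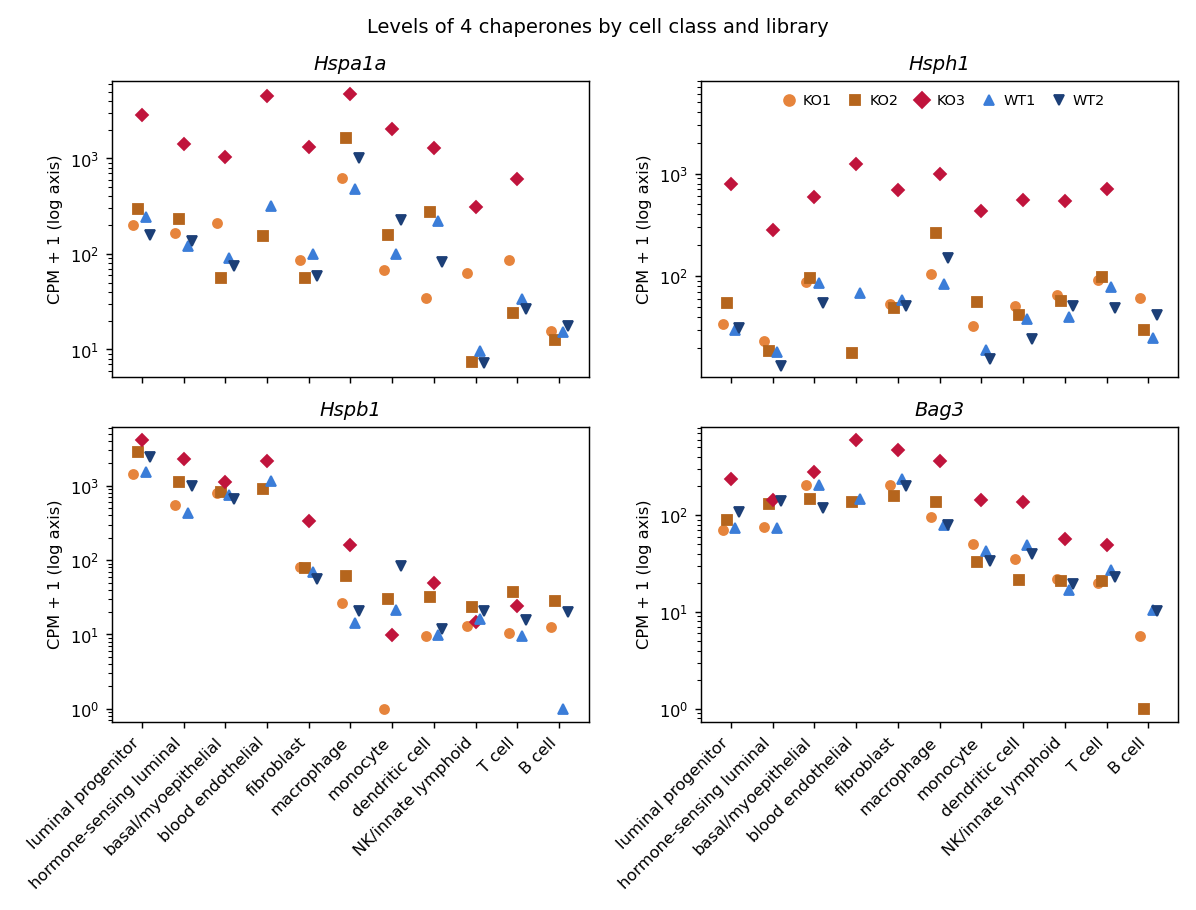
Level of Hspa1a, Hsph1, Hspb1 and Bag3 by cell class (horizontal axis), in CPM plus 1 on a log axis, with 1 point per library that held at least 20 cells of the class. Macrophage-like cells have the highest Hspa1a outside KO3 (483 to 1627 CPM), the epithelial and endothelial classes the highest Hspb1, and the KO3 diamonds lie above the other points for Hspa1a and Hsph1 in each class that KO3 holds.

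Outside KO3, mean Bag3 was highest in fibroblast-like (197 CPM) and basal/myoepithelial-like cells (168 CPM). It was higher in fibroblast-like cells by 2.27 (SE 0.14, edgeR adjusted p = 7.58e-19), with 203, 156, 465, 233 and 197 CPM, and in basal/myoepithelial-like cells by 1.73 (edgeR adjusted p = 1.26e-12). The order differed in KO3. There Bag3 stood at 765 CPM in mast/basophil-like and 592 CPM in blood endothelial-like cells, both not in the fit. Macrophage-like cells of KO3 had 363 CPM and basal/myoepithelial-like cells 277 CPM. In WT2 hormone-sensing luminal-like cells (138 CPM) were above basal/myoepithelial-like cells (117 CPM). In B cell-like cells Bag3 was lower by 3.73 on the log2 scale, with 0 to 9.52 CPM. Hspb8, the small heat shock protein that binds Bag3, was higher in fibroblast-like and basal/myoepithelial-like cells by 4.20 and 2.66 (edgeR adjusted p = 3.84e-27 and 1.75e-14). Cryab, a crystallin of the same family, was higher in luminal progenitor-like (4.07), fibroblast-like (3.77) and basal/myoepithelial-like cells (3.28), each with an edgeR adjusted p of at most 4.04e-15. In KO3 over all cells, Hspb8 stood at 52.5 CPM against 63.6 to 86.5 and Cryab at 88.5 against 51.3 to 91.3 CPM, so neither was above the other libraries there.

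The remaining members differed less between classes. Hspa8 was lower in hormone-sensing luminal-like cells by 0.80 on the log2 scale (edgeR adjusted p = 4.72e-08), with 714, 845, 2206, 756 and 809 CPM, and lower in B cell-like cells by 1.40 (edgeR adjusted p = 8.58e-12). Hsph1 was lower in hormone-sensing luminal-like cells by 1.51 (edgeR adjusted p = 3.39e-08), with 22.2, 17.5, 281, 17.2 and 12.2 CPM. Dnajb1 was higher in hormone-sensing luminal-like cells by 0.70 and in fibroblast-like cells by 0.60 (edgeR adjusted p = 3.285e-05 and 0.0002803). Of the mitochondrial pair, both genes were higher in basal/myoepithelial-like cells (Hspd1 1.15, Hspe1 0.80) and both lower in monocyte-like cells (-1.42 and -0.87), all 4 past the threshold. In the other classes called, 1 gene of the pair passed without the other: Hspd1 in luminal progenitor-like (0.53), fibroblast-like (0.34), dendritic cell-like (-0.58) and B cell-like cells (-0.55), and Hspe1 in T cell-like cells (0.33). Of these 5 calls, 3 were lost when a library was left out: Hspd1 in fibroblast-like cells without WT1 or WT2 (edgeR adjusted p = 0.052 and 0.10), Hspd1 in B cell-like cells without WT1 or WT2 (0.16 and 0.075), and Hspe1 in T cell-like cells without KO1, KO2 or WT1 (0.25, 0.072 and 0.091). Chaperonin and prefoldin subunits, which fold actin and tubulin, differed from Hsp70 in macrophage-like cells, with 0 higher and 11 lower of 14, beside 30.8% and 24.7% of all genes. In luminal progenitor-like cells 12 were higher and 1 lower (all genes 33.8% and 25.7%), in hormone-sensing luminal-like cells 11 and 1 (39% and 28.1%).

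The genotype contrast contains the library by which the members were chosen, so its counts are given as a description. With edgeR's quasi-likelihood test at an adjusted p of 0.05, 0 of 98 pairs of member and class in 10 classes passed; an unadjusted p under 0.05 was found for 6. DESeq2 called 0 of 100 (18 by the unadjusted p), and edgeR with no gene filter called 4, all in luminal progenitor-like cells (Hspa1a, Hspa1b, Hsph1 and Dnajb1). Across all genes the same test called 0% in 9 classes and 0.0224% of 8925 genes, 2 in number, in macrophage-like cells. The log2 difference of knockout-labelled over wild type was above 0 for 95 of the 98 pairs, with a median of 0.84. Without KO3 it was above 0 for 77 of 99 pairs, with a median of 0.20. In fibroblast-like cells the median over the members went from 0.87 to -0.11 when KO3 was left out, in luminal progenitor-like cells from 0.84 to 0.13 and in macrophage-like cells from 1.49 to 0.59. These medians are descriptions, since the members were chosen with KO3 in view.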

How the data were processed

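UMI counts of 5 libraries were made by the authors with Cell Ranger 6.0.2 (KO1, KO2, WT1, WT2) and 6.1.2 (KO3), per the file headers, on mm10, per the submitters' processing notes. Barcodes with 500 genes or more and no more than 15% of UMIs from mitochondrial genes were retained (28588 of 32472); 1754 were then removed as doublets by likeness to simulated ones. Clusters (leidenalg 0.10.2, resolution 1, 35 clusters) were built without chaperones and named from markers; the rule that left 5 unnamed was set after the clusters were seen. The deposited counts were summed per library and class (at least 20 cells) and fitted over all genes with edgeR 4.0.16 (filterByExpr, TMM, robust quasi-likelihood, Benjamini-Hochberg, threshold 0.05); the SE is the log2 value over the root of F. Fits were tested on simulated data. CPM are shares of all UMIs. Alternatives include DESeq2 1.42.0, a stricter cell filter, finer clusters and each library left out. Besides the members, genes are named from lists: those past the class test, or the up to 3 highest and the lowest ratio in KO3 of genes with a mean of at least 10 CPM, and the 10 most alike. Members and lists were chosen with earlier results of these data known. Each library is 1 mouse, and Poisson intervals cover counting error only. Gene positions follow GENCODE release 21 by gene ID.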

Additional observations from a re-analysis of the deposited data

Results flagged for a closer look

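Barcodes with more than 15% mitochondrial UMIs entered no comparison. In the 621 such barcodes of KO3 the 10 chaperones summed to 5395.6 CPM, against 1684 CPM in 359 barcodes of WT1 and 1741 CPM in 433 of WT2, and thus above both wild-type libraries. Hspa1b stood there at 1253 CPM in KO3 and at 60.1 to 72.1 CPM in wild type. The 739 such barcodes of KO2 were above wild type by little, with a sum of 1839.84 CPM, and the 419 of KO1 were not, with 1719 CPM. In each library the sum was lower in these barcodes than in those at or under 15%: 3903 and 4383 CPM in KO1 and KO2, 12695 CPM in KO3, and 3974 and 3850 CPM in WT1 and WT2. No group has the 4 samples that a check for outlying samples needs.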

How the results depend on the processing

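The median log2 ratio of KO3 over members was 1.22 to 1.33 against 1.25, and 107 of 111 values for single members or the hormone-sensing sum moved by less than the spread between the other libraries. With classes weighted equally, the log2 ratios of Hspa1a, Hspa1b and Hsph1 were 3.07, 3.74 and 3.39 against 3.72, 4.41 and 3.88 (the medians of their ratios within classes, with 1 CPM added, were 3.75, 4.08 and 3.77, and 1.44 over the 10 members), and that of the hormone-sensing sum was 1.43 against 1.69 without the deepest cluster. The per-cell ratio of medians, 2.96, was 3.08 at 1000 UMIs or over named classes, alternatives of which the last was added after seeing the data, as was leaving out the deepest cluster. Of the 63 class calls, 44 held under every alternative; 50 to 64 pairs were called when a library was left out, fewest without WT1, and the call of Hspa1a in dendritic cell-like cells (0.88) turned to -0.058 with finer clusters (edgeR adjusted p = 0.993); the cause was not tested. Genotype calls depended most on the setting. Pairs of member and class called numbered 0, but 4 with no gene filter (all in luminal progenitor-like cells). Genes called over all classes numbered 2, but 190 with no gene filter, 7 with DESeq2, 4 with the stricter cell filter and 0 with finer clusters. With a library left out they numbered 0 to 46 (0 without KO3, 7 without KO1, 19 without WT1, 32 without KO2 and 46 without WT2). The median log2 difference was 0.20 to 1.11 when a library was left out, lowest without KO3. With the replicate number as a block, KO3 drops out of the contrast: 3 pairs were called (Hspa1a and Hspa1b in hormone-sensing luminal-like cells, Hsph1 in luminal progenitor-like cells), 381 genes, and the median was 0.18. Libraries share only a number, and the labels do not say that it marks a batch. Deviations from the group mean correlated across genes at 0.17 to 0.66 (KO1 with WT1) and 0.24 to 0.71 (KO2 with WT2) over 9 classes. The deviations of WT1 and WT2 are equal and opposite by construction, so these ranges are not independent of each other. For the promoters, 7 members had a match with 2 units in place of 3 with 3 units.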
